A study of Mus musculus with 3 samples.

Results

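Wnt ligands, their Frizzled receptors, secreted inhibitors and a set of Wnt feedback and target genes were followed across the cell clusters of the mouse pituitary in 3 genotypes at the Tpit locus. The members were picked by gene symbol alone. They were every Wnt gene, every Frizzled (Fzd) gene, every Sfrp and Dkk gene, and Axin2, Lef1, Nkd1, Notum, Lgr5, Znrf3 and Rnf43. This rule named 44 of the 55293 gene symbols in the count table, and the 30 of them with at least 50 counts over all cells are described here.

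The authors dissociated whole pituitaries and read the RNA of single cells with 10x Chromium 3′ v3 chemistry, 1 library each from TpitWT, TpitHT and TpitKO mice. They are called WT, HT and KO below. Tpit, encoded by Tbx19, is the T-box transcription factor required for the cells that make pro-opiomelanocortin (Pomc), which are the corticotropes of the anterior lobe and the melanotropes of the intermediate lobe. The labels do not spell out HT and give no strain, allele design, age or number of mice. Dead cells had been sorted out with propidium iodide, and cells of every type were loaded together.

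Wnt proteins are secreted, lipid-modified ligands that bind Frizzled receptors together with Lrp5 or Lrp6. In the canonical branch this stabilises beta-catenin, which enters the nucleus and acts with Tcf and Lef factors, and in other branches it acts on cell polarity and calcium. Sfrp proteins bind Wnts outside the cell, Dkk proteins act on the co-receptors, and Axin2, Nkd1, Notum, Rnf43 and Znrf3 dampen the pathway, several of them as its own targets. In the pituitary, Wnt signalling is known for its part in growth of the gland and in its stem cells.

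The libraries held 11222, 12839 and 13413 cells and 107289047, 152382545 and 133252735 counts in WT, HT and KO. The files number 21 clusters, 0 to 20, which were named here from marker genes. The Pomc cells were corticotrope-like cluster 6 and melanotrope-like cluster 7. The other hormone cells were lactotrope-like clusters 0 and 4, somatotrope-like clusters 1, 2 and 5, gonadotrope-like cluster 3 and thyrotrope-like cluster 14. The remaining named ones were stem-cell-like 10, fibroblast-like 15, pituicyte-like 18, endothelial-like 9, macrophage-like 8 and 19 and the small cycling cluster 20, while 11, 12, 13, 16 and 17 kept their numbers. Cluster 5 had all 5 somatotrope markers detected but none among its top 10 genes by fold, and cluster 15 also carried 5 of 7 pericyte markers. Tbx19 stood at 17.6, 12.4 and 0.690 CPM (counts scaled to a total of 1000000) in WT, HT and KO, and Pomc at 21846, 22576 and 58.3 CPM. No KO cell lay in clusters 6 and 7, which held 16.1% of WT and 13.8% of HT cells, and cluster 2 had 2081 WT, 2092 HT and 17 KO cells against 28, 24 and 2457 in cluster 5. With 1 library for each genotype, clusters found almost only in 1 library cannot be told apart from that library, and no difference was tested. Intervals in the text are 95% intervals for counting error only. They are too narrow where several counts come from 1 cell. Of 37359 barcode sequences, 115 occurred in 2 libraries.

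CPM levels are relative to the total count of the same cells. They were set side by side within a gene, never between genes. Over all cells, fewer cells of a type and less RNA per cell cannot be told apart, so each member is given over all cells and then by cluster.

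Among the 19 Wnt ligands, 10 reached 50 counts, as did all 10 Frizzled receptors, 3 of 4 Sfrp genes, 1 of 4 Dkk genes and 6 of 7 feedback and target genes. The 14 members below that were Wnt1, Wnt3a, Wnt7a, Wnt7b, Wnt8a, Wnt8b, Wnt9b, Wnt11, Wnt16, Sfrp4, Dkk1, Dkk2, Dkk4 and Notum. Of the 30 described, 18 reached 20 CPM in some cluster of at least 50 cells. The other 12 were sparse everywhere, and Wnt10b and Wnt2b had no cluster with 10 counts in any library.

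The stem-cell-like cluster 10 had the highest level of 10 members in WT, 9 in HT, with 10 in KO, over clusters of at least 50 cells. Next came the melanotrope-like cluster, with 4 members in WT and 4 in HT. Corticotrope-like, thyrotrope-like and fibroblast-like cells led 2 members each in WT, and corticotrope-like cells, fibroblast-like cells and somatotrope-like cluster 2 led 3 each in HT. The pituicyte-like cluster, with 107 cells in KO but 9 in WT and 2 in HT, led 6 members in KO. A leading cluster could be given in all 3 libraries for 24 members. It was the same cluster in WT and HT for 18 of the 24 and the same in all 3 libraries for 6, namely Wnt9a, Fzd2, Fzd3, Fzd7, Sfrp5 and Dkk3. The rest of the 18 were led in WT and HT by cluster 6, 7 or 2, with 0, 0 and 17 KO cells, or in KO by cluster 18. Those clusters had too few cells to lead in every library, so the fall from 18 to 6 cannot by itself show a move between cell types. Fzd5 also differed below cluster 18. Cluster 14 led it in WT and HT, and the second level in KO was that of cluster 17, at 35.0 CPM.

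**Figure D1:**
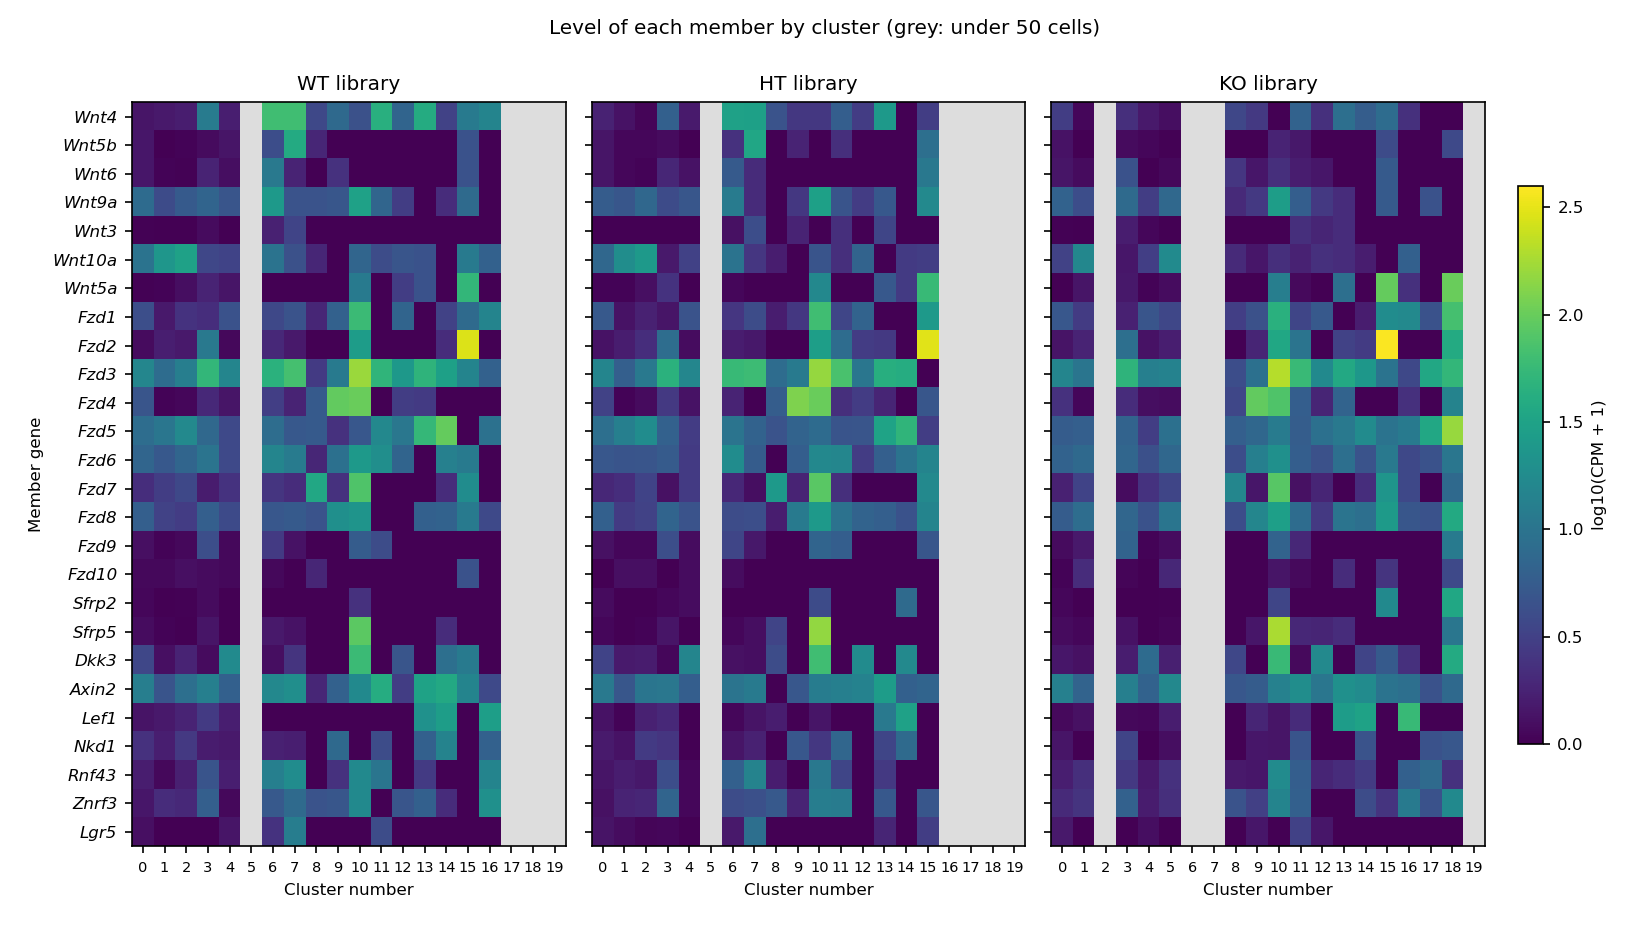
Levels of 26 members (rows) in clusters 0 to 19 (columns), 1 panel for each library, as log10 of CPM plus 1; clusters with fewer than 50 cells are grey. Fzd3, Sfrp5 and Dkk3 are brightest in cluster 10 in every panel and Fzd2 in cluster 15. In WT and HT, Wnt4 is brightest in clusters 6 and 7 and Wnt5b in cluster 7, and the KO panel lacks both clusters.

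Over all cells, 5 of the 26 members with enough counts were at least 2-fold higher in KO than in WT (Fzd2, Fzd9, Sfrp2, Sfrp5 and Wnt5a), beside 5.79% of all 21791 genes compared. At least 2-fold lower were 4 members (Wnt4, Wnt5b, Wnt10a and Lgr5), beside 2.55% of all genes. The median log2 ratio of the 26 members was 0.06, against 0.07 for all genes, with members past the fold on both sides. On the authors' scaled counts the same 26 members split into 2 higher and 7 lower, beside 4.73% and 8.12% of all genes. Against HT, KO was at least 2-fold higher for 4 of 26 members (Fzd10, Lef1, Sfrp2 and Wnt5a), beside 4.92% of genes, and lower for 3 (Lgr5, Wnt4 and Wnt5b), beside 1.86%. HT against WT gave no member higher, beside 0.675% of genes, and 1 of 24 lower (Wnt4), beside 1.11%. The KO and HT comparisons with WT share the WT library.

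**Figure D2:**
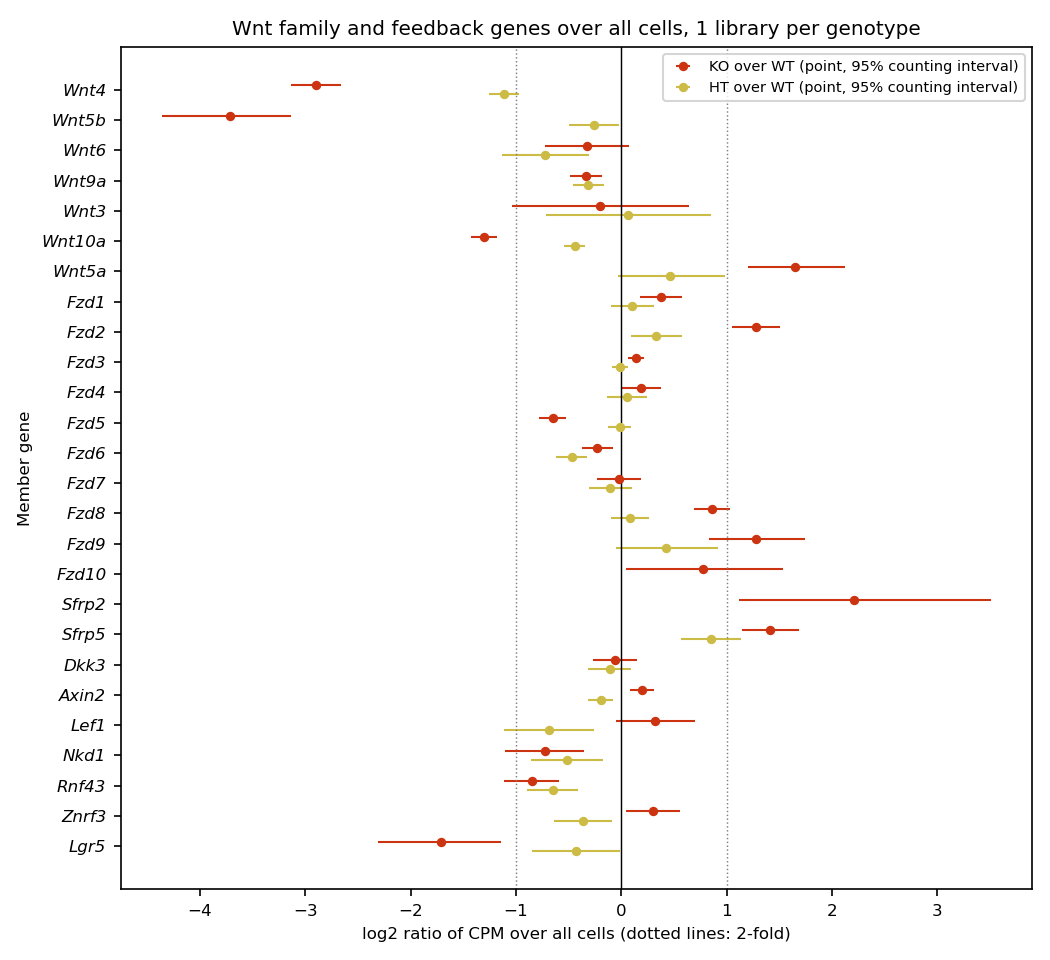
Log2 ratio of CPM over all cells for KO over WT (26 members) and HT over WT (24 members), points with 95% counting intervals; dotted lines mark 2-fold. Wnt5b and Wnt4 lie farthest to the left for KO over WT, at ratios of 0.0761 and 0.134, and Sfrp2 and Wnt5a farthest to the right, at 4.63 and 3.14.

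Wnt4, a ligand used in kidney and gonad development, was found mainly in the Pomc cells. It lies at chr4:137277489-137299726 on the plus strand (GRCm38). Over all cells it stood at 9.73 CPM in WT (9.15–10.3), 4.50 in HT (4.17–4.85), with 1.31 in KO (1.12–1.51). The 3 intervals did not overlap, and WT was 7.45-fold above KO (6.34–8.80) and 2.16-fold above HT (1.96–2.38). Corticotrope-like and melanotrope-like cells together held most of its counts in WT and HT. In cluster 6 it was at 63.2 CPM in WT (57.8–69.0) and 29.9 in HT (26.5–33.6). Cluster 7 was nearly the same, at 62.1 (56.0–68.7) and 29.1 (25.6–33.0).

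HT thus stood at a 2.11-fold lower Wnt4 level than WT in cluster 6 (1.83–2.45) and a 2.13-fold lower one in cluster 7 (1.81–2.52). The share of cells with a Wnt4 count showed the same order. It was 24.8% in WT and 16.9% in HT in cluster 6, and 30.1% and 18.9% in cluster 7, although HT cells were read more deeply (means of 9256 against 7376 counts per cell in cluster 6 and 11452 against 8380 in cluster 7). Endothelial-like cells, at means of 3610 and 4343 counts per cell, had a Wnt4 count in 1.45% and 0.712% of cells.

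Outside these clusters Wnt4 was lower, and its counts were few. Gonadotrope-like cells had 10.9 CPM in WT (8.23–14.2), 5.32 in HT (3.99–6.96), with 1.26 in KO (0.832–1.84), and so a WT level 8.65-fold above KO (5.37–14.3). The endothelial-like cells of the same libraries stood at 6.69, 1.64 and 1.71 CPM on 5, 2 and 4 counts, with intervals that overlap those of the gonadotrope-like cells in every library. Lactotrope-like cluster 0 had the opposite order, at 0.401, 0.788 and 1.94 CPM, with KO 4.83-fold above WT (2.56–9.90) but below or within the endothelial intervals. Somatotrope-like cells of WT, summed over their clusters, stood at 0.595 CPM (0.389–0.872), so WT gonadotrope-like cells lay above both other hormone cell types. A Wnt4 count was found in 8.02% of WT gonadotrope-like cells (5.68–10.9), above the endothelial-like share, but at means of 11207 against 3610 counts per cell. It was found in 1.32% of those of KO, where the endothelial-like share was 0.725% (0.198–1.84), at means of 12862 and 4250. Shares at such unlike depths cannot set these cell types apart. In cluster 0 of KO the share was 1.05% (0.721–1.47), not distinguishable from the KO endothelial-like share at this depth. In cluster 11 the level was 42.8 CPM in WT on 14 counts, 4.91 in HT on 4 and 5.53 in KO on 35 (3.85–7.68). That cluster had 53, 107 and 871 cells, with corticotrope markers summed at 20192, 33665 and 278 CPM.

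Wnt5b, a ligand known mainly from the branches that do not use beta-catenin, was close to a melanotrope-like gene. Its levels over all cells were 2.56 CPM in WT (2.27–2.88), 2.15 in HT (1.92–2.39), with 0.195 in KO (0.127–0.286), and WT was 13.1-fold above KO (8.77–20.5). The KO to WT ratio was 0.0761, and 0.152 on the authors' scaled counts. Cluster 7 held 83.3% of its WT counts and 85.3% of its HT counts, at 37.4 CPM (32.7–42.6) and 33.3 CPM (29.5–37.4). WT and HT overlapped there, at a WT to HT ratio of 1.13 (0.94–1.34), unlike for Wnt4.

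In corticotrope-like cells Wnt5b reached only 3.14 CPM in WT (2.03–4.63) and 1.35 in HT (0.721–2.32). Wnt5b thus stood apart between the 2 Pomc cell types, while Wnt4 was level between them. Wnt5b lies at chr6:119432531-119544347 on the minus strand and overlaps Fbxl14 on the plus strand, and whether counting used the strand is not stated. Fbxl14 had no such peak, at 23.7 CPM in cluster 7, 23.0 in cluster 6 and 19 in cluster 0 of WT.

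Without clusters 6 and 7 in any library, the KO to WT ratio of Wnt4 was 0.761, within 2-fold of WT. That of Wnt5b was 0.866, on fewer counts than the limit for a comparison. The start regions of both genes are shown because these members stood lowest in KO. Each sequence is from the RefSeq window of 250 bases before a start site on GRCm38.p6, 5′ to 3′ on the gene's strand. Capitals mark a Tcf/Lef core (CTTTGAT). The Wnt4 stretch is chr4:137277385-137277488 (plus), the first 104 bases of its window. It was cut where the gene begins in the deposited table, so the bases directly before the RefSeq start site are not printed. The Wnt5b stretches are chr6:119544348-119544597 (minus), upstream of the gene, and chr6:119449387-119449636 (minus), before an inner start site in an intron of the longer transcript. A further intronic stretch, chr6:119467212-119467461 (minus), held neither motif and is not printed.
Wnt4: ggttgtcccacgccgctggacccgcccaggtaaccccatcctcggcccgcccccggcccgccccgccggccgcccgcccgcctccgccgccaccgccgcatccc
Wnt5b outer: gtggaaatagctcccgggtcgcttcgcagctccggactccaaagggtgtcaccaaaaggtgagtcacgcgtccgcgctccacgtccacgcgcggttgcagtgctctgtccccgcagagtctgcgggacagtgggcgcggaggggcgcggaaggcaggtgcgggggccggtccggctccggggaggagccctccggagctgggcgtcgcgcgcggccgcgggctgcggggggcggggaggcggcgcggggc
Wnt5b inner: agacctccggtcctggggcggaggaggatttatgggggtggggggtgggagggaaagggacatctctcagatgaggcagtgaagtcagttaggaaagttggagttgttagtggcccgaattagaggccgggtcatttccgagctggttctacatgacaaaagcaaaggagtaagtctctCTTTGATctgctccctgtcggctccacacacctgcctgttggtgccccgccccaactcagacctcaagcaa

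RefSeq windows of 250 bases before to 50 after a start site were at hand for 20 of the 30 members, 26 windows in all. The T-box half-site TCACACC, read on both strands, was in 0 of the 26 and in 3.98% of all 32851 windows. The Tcf/Lef core CTTTGAT, also read on both strands, was in 1 of the 26, the inner Wnt5b window, where it begins 71 bases before the start site, and in 3.73% of all windows. The motifs do not overlap, and a match is a description of letters only.

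Wnt6 and Wnt9a were corticotrope-like rather than melanotrope-like among the Pomc cells. Wnt6 stood at 10.2 CPM in cluster 6 of WT (8.07–12.6) and 4.48 of HT (3.24–6.03), against 0.817 and 1.07 CPM in cluster 7. Wnt9a stood at 23.7 CPM in cluster 6 of WT (20.4–27.3) and 10.9 of HT (8.95–13.2). As with Wnt4, the WT level in corticotrope-like cells was above HT with no overlap, 2.27-fold for Wnt6 (1.55–3.36) and 2.17-fold for Wnt9a (1.70–2.78).

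In KO, most of the remaining Wnt6 counts, 69.4%, lay in gonadotrope-like cells. Their Wnt6 level was 0.795 CPM in WT on 4 counts, 0.904 in HT on 9 and 3.51 in KO on 75 (2.76–4.40), with KO 4.41-fold above WT (1.65–16.6) and 3.88-fold above HT (1.94–8.82). A Wnt6 count was found in 3.19% of KO gonadotrope-like cells against 0.181% of KO endothelial-like cells, at means of 12862 and 4250 counts per cell. Over all cells the level was 1.02, 0.617 and 0.810 CPM, with KO between WT and HT. Without clusters 6 and 7 the KO to WT ratio of Wnt6 was 3.28.

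Wnt9a was also a gene of the stem-cell-like cluster, with 29.8 CPM in WT (21.6–40.0), 29.1 in HT (22.7–36.8), with 26.7 in KO (20.6–34.0). These 3 values overlapped throughout. In lactotrope-like cluster 4 it was at 3.90, 3.99 and 1.98 CPM, and in gonadotrope-like cells at 5.96, 2.91 and 6.88. Wnt3 was sparse, with 15 of 25 WT counts and 26 of 37 HT counts in melanotrope-like cells, at 2.45 and 3.1 CPM, and 13 of 27 KO counts in gonadotrope-like cells, at 0.608 CPM.

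**Figure D3:**
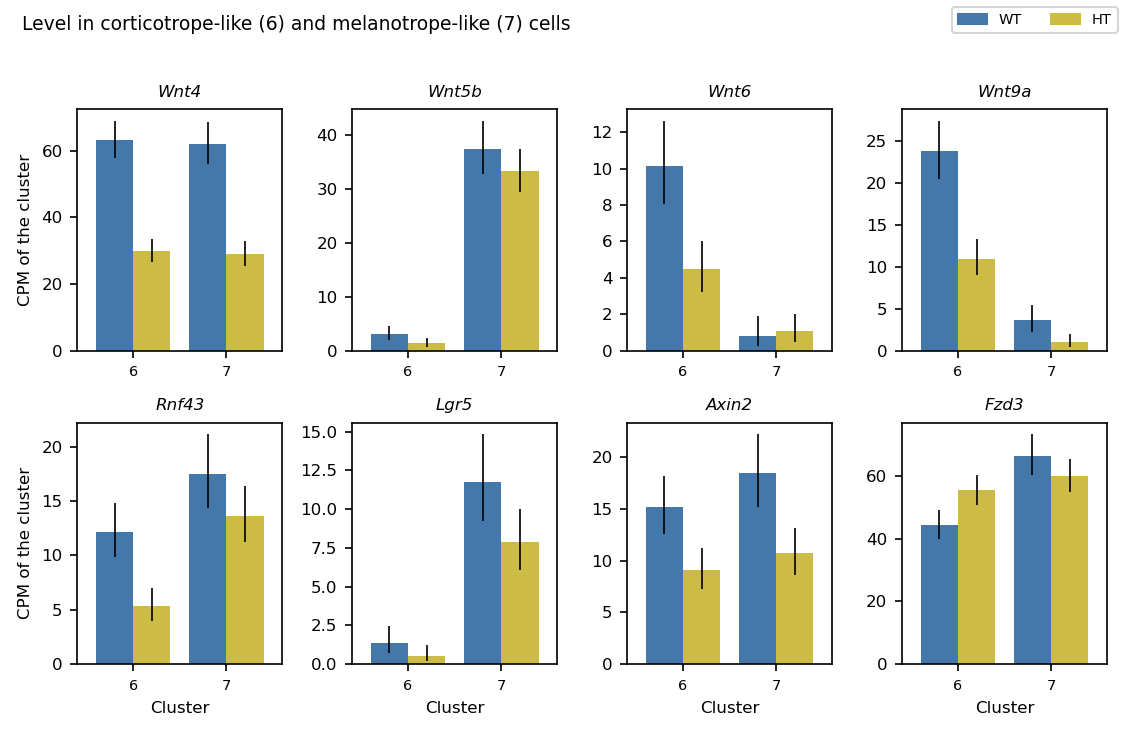
CPM of 8 members in corticotrope-like (6) and melanotrope-like (7) cells of WT and HT, bars with 95% counting intervals; KO has no cells there. Wnt4 is about equally high in both clusters and lower in HT in each, Wnt5b and Lgr5 are melanotrope-like, and Wnt6 and Wnt9a are corticotrope-like.

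Wnt10a, a canonical ligand best known from skin, teeth and fat, was the somatotrope-like member. It stood at 14.8 CPM over all cells of WT (14.1–15.5), 10.9 of HT (10.4–11.4) and 6.0 of KO (5.59–6.43), and WT was 2.46-fold above KO (2.26–2.69). The somatotrope-like clusters held 74.4%, 71.7% and 83.0% of its counts. In cluster 1, which all libraries share, it was at 22.0 CPM in WT (19.6–24.6), 17.9 in HT (16–19.9), with 14.9 in KO (12.6–17.5), where WT and KO did not overlap and HT overlapped both. Cluster 2 had 29.6 CPM in WT and 23.7 in HT, and cluster 5 had 16.4 CPM in KO.

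Summed over clusters 1, 2 and 5, Wnt10a was at 27.0, 21.6 and 16 CPM, although cluster 2 makes up most of that sum in WT and HT and cluster 5 in KO. A larger gap was found in lactotrope-like cluster 0, where the level was 8.75 CPM in WT (7.72–9.88), 6.44 in HT (5.76–7.18), with 2.24 in KO (1.74–2.85). WT was thus 3.90-fold above KO there (2.97–5.19) and KO lay apart from both other libraries. A Wnt10a count was found in 5.15%, 4.69% and 1.43% of cluster 0 cells against 0% of endothelial-like cells in WT and HT and 0.181% in KO. Mean counts per cell were 9013, 11496 and 9319 in cluster 0 and 3610, 4343 and 4250 in endothelial-like cells. In cluster 4 the levels overlapped at 2.34, 2.22 and 2.03 CPM. Of the 4 members at least 2-fold lower in KO over all cells, only Wnt4 and Wnt10a had enough counts to be compared without clusters 6 and 7. Wnt10a was still 2-fold lower there, at a KO to WT ratio of 0.374, and Wnt4 was not.

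Wnt5a, the best studied ligand of the polarity branch, was a gene of connective and neural lobe cells. It stood at 0.475 CPM over all cells in WT (0.354–0.625), 0.656 in HT (0.534–0.798), with 1.49 in KO (1.29–1.72), with KO 3.14-fold above WT (2.30–4.36). Fibroblast-like cells had 52.1 CPM in WT on 15 counts (29.2–86.0), 55.3 in HT (36.7–79.9), with 95.1 in KO (73.4–121). Pituicyte-like cells had 101 CPM in KO (79.0–126) and no count in the 9 cells of WT or the 2 of HT, where 3 counts would be 53.3 and 156 CPM.

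Stem-cell-like cells overlapped for Wnt5a, at 10.8, 15.4 and 11.9 CPM with overlapping intervals. The 2 clusters rich in Wnt5a had more KO cells, 57, 99 and 144 for cluster 15 and 9, 2 and 107 for cluster 18. The marker lists moved with them. All 7 fibroblast markers and all 8 pituicyte markers were higher in KO than WT over all cells, with summed levels of 139, 160 and 235 CPM for the first and 15.1, 14.5 and 76.1 CPM for the second, and no marker of either list at 0. Their part in the all-cell difference was not tested beyond the value that follows. Without clusters 15 and 18, a comparison chosen after seeing the data, the KO to WT ratio of Wnt5a was 1.35.

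The remaining ligands were near the limit of detection. Wnt2 had 14, 18 and 18 counts in WT, HT and KO, most of them in stem-cell-like and endothelial-like cells. Wnt2b had 16, 19 and 23 counts and Wnt10b had 17, 25 and 14.

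Among the receptors, Fzd3, needed for axon guidance and polarity in the nervous system, differed little between libraries. It stood at 22.1, 22.0 and 24.4 CPM over all cells of WT, HT and KO and was highest in stem-cell-like cells, at 160 CPM in WT (141–182), 155 in HT (140–171), with 205 in KO (187–224). There KO was 1.28-fold above WT (1.09–1.5). Melanotrope-like cells followed in WT with 66.5 CPM, corticotrope-like cells had 44.3, gonadotrope-like cells 52.1 and cluster 11 had 48.9, against 1.79 CPM in macrophage-like cells.

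Fzd1, Fzd4 and Fzd7 were likewise high in stem-cell-like cells. Fzd7, a receptor linked to stem cells in several tissues, was at 75.8, 85.4 and 82.5 CPM in cluster 10, and Fzd1 at 58.2, 62.0 and 43.9 CPM, below the 66.7 CPM of Fzd1 in pituicyte-like cells of KO. Fzd4, the receptor for norrin that patterns retinal vessels, was shared between stem-cell-like cells at 101, 99.9 and 76.0 CPM and endothelial-like cells at 93.7, 124 and 92.5 CPM. Macrophage-like cluster 8 held a further site of Fzd7, at 35.0 CPM in WT (24.9–47.8), 23.9 in HT (17–32.7), with 14.5 in KO (9.61–20.9).

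Lactotrope-like cluster 0 had a low Fzd4 level that was lower again in KO, at 3.88, 2.25 and 1.33 CPM. WT stood 2.92-fold above KO (2.02–4.32), on shares of cells of 2.62%, 1.95% and 0.919%, while macrophage-like cells had 1.30%, 1.59% and 1.20% at means of 3630, 4331 and 4644 counts per cell. The KO interval of the cluster 0 share (0.616–1.32) lay below those of WT (2.1–3.22) and HT (1.56–2.40). Cluster 0 cells had means of 9013, 11496 and 9319 counts. Shares at such unlike depths cannot set cluster 0 apart from macrophage-like cells or level with them.

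Fzd2 was the marker-like receptor of fibroblast-like cells. It stood there at 288 CPM in WT (230–358), 306 in HT (260–358), with 382 in KO (337–431), and a count was found in 63.2%, 63.6% and 62.5% of cells, against 0%, 0% and 0.362% of endothelial-like cells. Over all cells the level was 2.02, 2.55 and 4.89 CPM, with KO 2.42-fold above WT (2.07–2.83) and a ratio of 1.34 on the authors' scaled counts. Within stem-cell-like cells (26.4, 27.5 and 34.1 CPM) and gonadotrope-like cells (10.1, 7.43 and 7.91 CPM) the intervals of the 3 libraries overlapped. The fibroblast-like and gonadotrope-like clusters held more cells in KO. With the clusters of at least 20 cells in both libraries weighted to their WT shares of cells, the KO to WT ratio of Fzd2 was 1.19. That weighting leaves out clusters 2, 6, 7, 18 and 20.

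Fzd9 stood at 0.522, 0.702 and 1.27 CPM over all cells and a KO level 2.43-fold above WT (1.79–3.35), which turned to a ratio of 0.789 on the authors' scaled counts. Gonadotrope-like cells numbered 449, 630 and 1662 and held 28.6%, 29.9% and 72.2% of its counts. Their level was 3.18 CPM in WT (1.82–5.16), 3.21 in HT (2.20–4.54), with 5.71 in KO (4.74–6.81).

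Fzd8 and Fzd5 stood in opposite order in somatotrope-like cells. Fzd8 was at 2.24 CPM in cluster 1 of WT (1.52–3.18), 1.85 of HT (1.28–2.58) and 7.5 of KO (5.88–9.43), with KO 3.35-fold above WT (2.17–5.27) and 4.06-fold above HT (2.67–6.29). Cluster 2 had 1.89 CPM in WT and 2.23 in HT, and cluster 5 had 9.21 CPM in KO (8.18–10.3). KO was therefore high in both of its somatotrope-like clusters and apart from the other libraries, while lactotrope-like cluster 0 was level at 5.08, 5.20 and 4.73 CPM.

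Over all cells Fzd8 stood at 3.87, 4.09 and 7.01 CPM, a KO to WT ratio of 1.81 that was 0.860 on the authors' scaled counts. Within cluster 1 those scaled counts gave a ratio of 2.94. Endothelial-like cells held Fzd8 too, at 18.7, 10.7 and 14.5 CPM.

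Fzd5, a receptor needed in gut Paneth cells and in the eye, was at 9.61, 12.3 and 5.13 CPM in cluster 1 and at 7.52, 7.86 and 4.66 in cluster 0. KO was the lowest library in both. Thyrotrope-like cells had the highest WT level, at 94.8 CPM (75.6–117), and stood at 48.7 in HT (32.4–70.4), with 16.9 in KO (11.3–24.5), with no overlap between libraries. A Fzd5 count was found in 49.5%, 28.8% and 12.7% of those 91, 52 and 157 cells. Cluster 13 had the same order at 53.2, 31.2 and 10.2 CPM, with WT and HT overlapping, and pituicyte-like cells of KO had 156 CPM (129–188).

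Fzd6, a polarity receptor of skin and hair, was spread thinly, at 6.88, 4.96 and 5.88 CPM over all cells. It was highest in stem-cell-like cells of WT and KO (24.4 and 19.3 CPM) and corticotrope-like cells of HT (17.3 CPM). Fzd10 was at 0.298, 0.328 and 0.987 CPM over the somatotrope-like clusters, on 13, 18 and 41 counts.

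**Figure D4:**
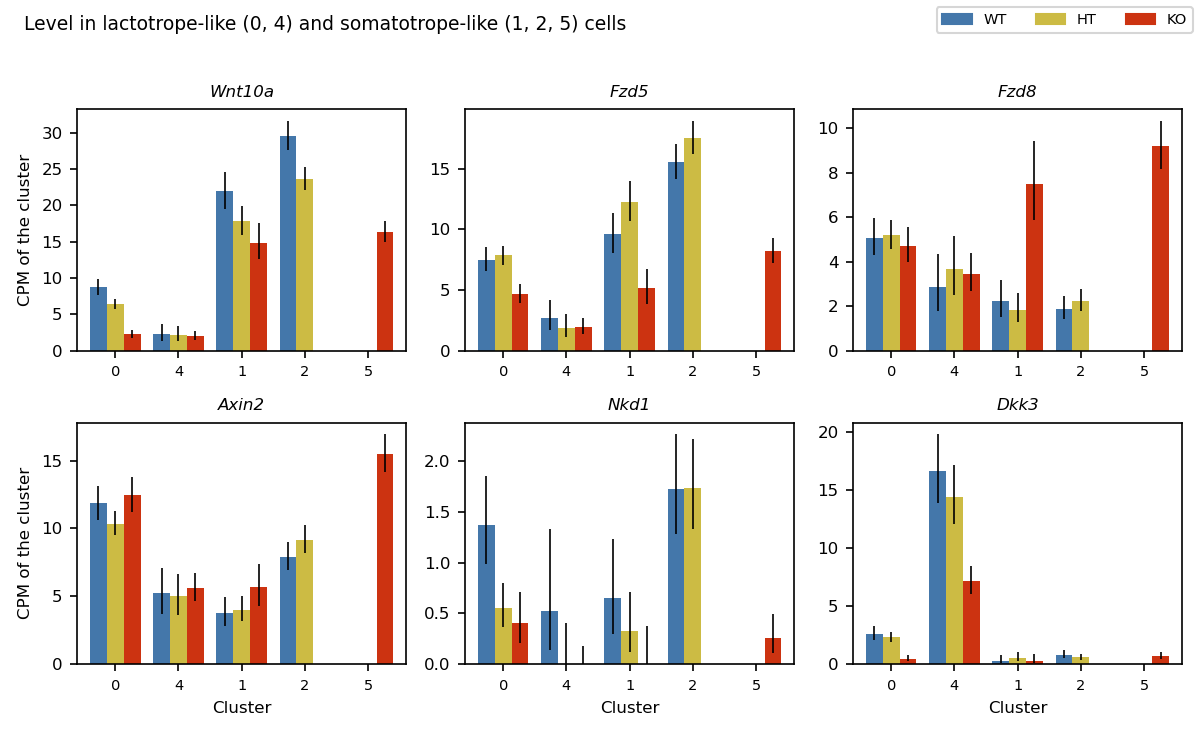
CPM of 6 members in lactotrope-like clusters 0 and 4 and somatotrope-like clusters 1, 2 and 5, bars with 95% counting intervals; clusters with fewer than 50 cells in a library have no bar. Wnt10a is lowest in KO in clusters 0 and 1, Fzd8 is highest in KO in clusters 1 and 5, and Dkk3 is lowest in KO in cluster 4.

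Sfrp5, a secreted decoy for Wnts, had 87.8% of its WT counts, 94.9% of its HT counts and 93.0% of its KO counts in stem-cell-like cells. It stood there at 87.3 CPM in WT (72.9–104), 149 in HT (134–165), with 186 in KO (169–204), and the 3 intervals did not overlap. KO was 2.13-fold above WT (1.75–2.61), and HT also stood above WT.

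The share of stem-cell-like cells with a Sfrp5 count was 25.4% in WT (20.2–31.1), 41.3% in HT (36.2–46.6), with 45.8% in KO (40.9–50.7), at means of 5600, 6709 and 5867 counts per cell. The HT cells were read more deeply, and the KO cells about as deeply as those of WT. Over all cells, where cluster 10 had 264, 358 and 415 cells, the level was 1.37, 2.47 and 3.65 CPM, with KO 2.67-fold above WT and a ratio of 1.76 on the authors' scaled counts. Of the 13 members compared between KO and WT in stem-cell-like cells, Sfrp5 was the only one past 2-fold, beside 1.75% of all genes that were that much higher there.

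Dkk3, an unusual Dkk protein that does not act on Lrp5 or Lrp6 as the others do, was level in stem-cell-like cells at 58.2, 62.5 and 57.1 CPM. It was lower in KO in both lactotrope-like clusters. Cluster 4 had 16.7 CPM in WT (13.9–19.8), 14.4 in HT (12–17.1), with 7.19 in KO (6.06–8.45), and cluster 0 had 2.61 (2.06–3.25), 2.34 (1.94–2.81) and 0.442 (0.235–0.756).

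In both clusters KO lay below WT and HT with no overlap, by 2.32-fold against WT in cluster 4 (1.81–2.96) and 5.90-fold in cluster 0 (3.25–11.6). A Dkk3 count was found in 14.7%, 14.1% and 6.77% of cluster 4 cells and in no endothelial-like cell. Mean counts per cell were 12982, 15338 and 13793 in cluster 4 and 3610, 4343 and 4250 in endothelial-like cells. Over all cells the Dkk3 level was 3.25, 3.02 and 3.11 CPM, and cluster 4 had 592, 588 and 1463 cells.

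Sfrp2 was rare, with 8, 25 and 46 counts, and KO was 4.63-fold above WT (2.16–11.4). The KO counts lay mostly in pituicyte-like cells (25 counts, 34.0 CPM) and fibroblast-like cells (11 counts, 16.1 CPM against none in WT or HT). Without clusters 15 and 18 the KO to WT ratio was 1.16, on fewer counts than the limit for a comparison. Sfrp1 had 15, 19 and 21 counts, with 5, 10 and 5 of them in fibroblast-like cells.

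**Figure D5:**
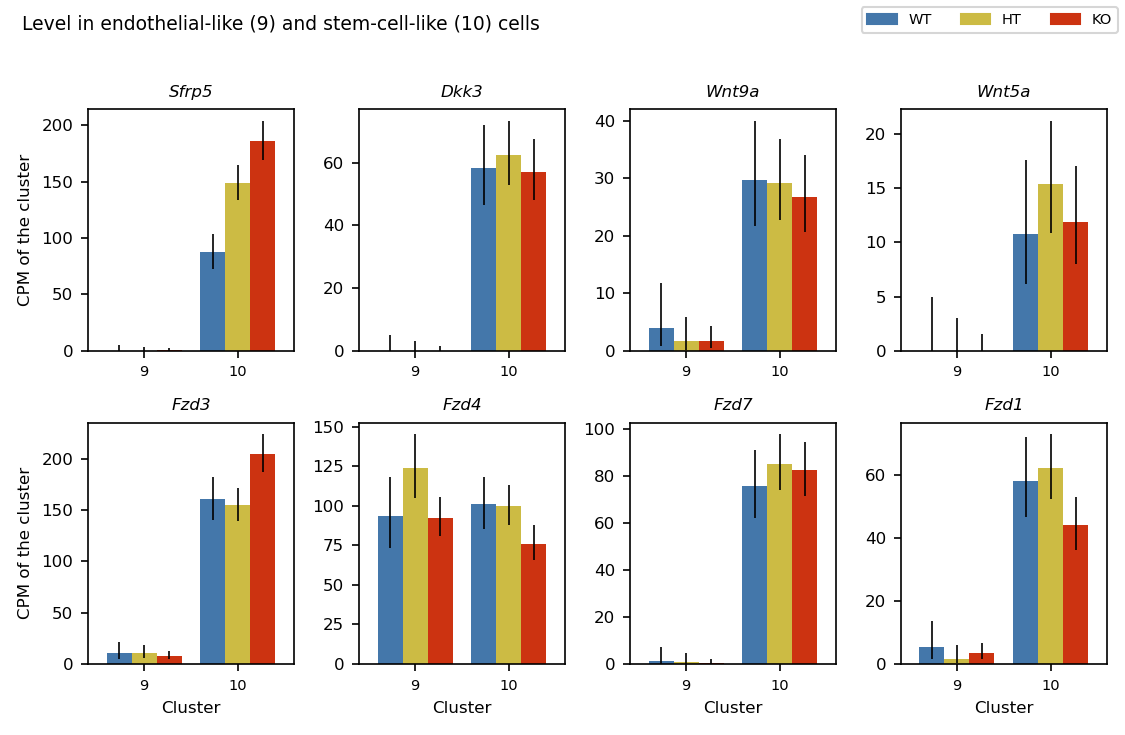
CPM of 8 members in endothelial-like (9) and stem-cell-like (10) cells of WT, HT and KO, bars with 95% counting intervals. Sfrp5 differs between the libraries in cluster 10 (87.3, 149 and 186 CPM), Fzd4 is high in both clusters, and Dkk3, Wnt9a and Fzd7 are level in cluster 10.

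Axin2, the scaffold and feedback gene often read as a measure of canonical signalling, stood at 10.1 (9.50–10.7), 8.82 (8.35–9.30) and 11.5 CPM (11–12.1) over all cells. The intervals did not overlap, and the differences were small, with a KO to WT ratio of 1.14 that was 0.752 on the authors' scaled counts. It was found in many cell types. In lactotrope-like cluster 0 it was at 11.9, 10.4 and 12.4 CPM, and in somatotrope-like cluster 1 at 3.76, 4.02 and 5.65 CPM. Cluster 5 of KO had 15.5 CPM (14.2–16.9), while cluster 2 had 7.91 CPM in WT and 9.18 in HT.

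The Pomc cells held Axin2 at a lower level in HT than WT. It stood at 15.2 CPM in WT (12.6–18.1) and 9.06 in HT (7.26–11.2) in cluster 6, and at 18.5 (15.2–22.2) and 10.7 (8.63–13.2) in cluster 7. In thyrotrope-like cells the level was 36.1, 5.22 and 16.9 CPM, on 32, 3 and 28 counts.

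Rnf43 and Znrf3, membrane ubiquitin ligases that remove Frizzled receptors, had different places. Rnf43 was at 17.5 CPM in melanotrope-like cells of WT (14.3–21.1) and 13.6 of HT (11.2–16.3), at 12.2 and 5.31 CPM in corticotrope-like cells, and at 16.2, 9.99 and 16.8 CPM in stem-cell-like cells. Gonadotrope-like cells had 3.78 CPM in WT (2.27–5.90), 3.11 in HT, with 1.73 in KO (1.22–2.39). Over all cells it stood at 2.82, 1.80 and 1.57 CPM, a KO to WT ratio of 0.555 that was 1.48 without clusters 6 and 7. Znrf3 stood at 1.96 (1.70–2.24), 1.52 (1.33–1.73) and 2.41 CPM (2.15–2.69) over all cells, with HT and KO apart, and was highest in stem-cell-like cells of WT and HT (16.2 and 11.7 CPM).

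Lgr5, the R-spondin receptor known from gut stem cells, was a melanotrope-like gene rather than a stem-cell-like one in these libraries. Cluster 7 held 75.8% of its WT counts and 66.0% of its HT counts, at 11.8 CPM (9.21–14.8) and 7.87 CPM (6.09–10.0). No Lgr5 count was found in the 264, 358 and 415 stem-cell-like cells, where 3 counts would be 2.03, 1.25 and 1.23 CPM. Over all cells WT stood 3.28-fold above KO (2.21–4.95), at 0.885, 0.656 and 0.270 CPM. Without clusters 6 and 7 the KO to WT ratio was 2.1, but Lgr5 had fewer counts there than the limit for a comparison. The reversed direction is therefore not read as a result. Of the 36 KO counts, 14 lay in cluster 11. That cluster had 53 WT, 107 HT and 871 KO cells.

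Lef1, a nuclear partner of beta-catenin, was highest in thyrotrope-like cells and in cluster 16, which carried all 9 lymphocyte markers and 6 of 9 macrophage markers. Thyrotrope-like cells were level at 27.1, 29.6 and 30.3 CPM, and cluster 16 had 27.5 CPM in WT on 10 counts and 55.0 in KO on 42 (39.7–74.4). Nkd1, which binds Dishevelled and dampens the pathway, was at 1.34, 0.938 and 0.810 CPM over all cells. In cluster 0 it was at 1.37, 0.552 and 0.408 CPM on 41, 28 and 12 counts, and in gonadotrope-like cells at 0.596, 1.51 and 2.43 CPM on 3, 15 and 52 counts, in the opposite order.

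Within clusters of at least 100 cells in both libraries, 58 pairs of member and cluster could be compared between KO and WT. They covered 7 clusters and 19 members. In 5 pairs KO was at least 2-fold higher and in 8 at least 2-fold lower. Cluster 0 had 1 of 13 higher (Wnt4), beside 1.03% of genes, and 4 lower (Dkk3, Fzd4, Nkd1 and Wnt10a), beside 1.92%. Cluster 1 had 1 of 8 higher (Fzd8), beside 3.9%.

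Gonadotrope-like cells had 2 of 13 higher (Nkd1 and Wnt6), beside 2.47%, and 2 lower (Rnf43 and Wnt4), beside 2.5%. Cluster 4 had 1 of 9 lower (Dkk3), beside 0.752%, and in macrophage-like cluster 8 the only member compared, Fzd7, was lower, beside 2.24%. On the authors' scaled counts all 13 of these pairs were also past 2-fold in the same direction.

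Between HT and WT, corticotrope-like cells had 4 of 11 members at least 2-fold lower (Wnt4, Wnt6, Wnt9a and Rnf43), beside 2.53% of genes, and melanotrope-like cells 3 of 10 (Wnt4, Fzd6 and Znrf3), beside 2.04%. The median log2 ratio of the members was -0.50 in cluster 6 and -0.52 in cluster 7, against -0.10 and -0.09 for all genes there. The receptor Fzd3 stood otherwise, at 44.3 and 55.4 CPM in cluster 6 and 66.5 and 59.9 in cluster 7 of WT and HT. All 7 pairs were also past 2-fold on the scaled counts. Elsewhere HT was lower for Wnt4 and Wnt9a in gonadotrope-like cells, beside 1.04% of genes, with ratios of 0.510 and 0.511 on the scaled counts that no longer pass. It was lower for Nkd1 in cluster 0, beside 0.758%, and higher for Fzd2 in cluster 2, beside 0.852%, at 0.507 CPM in WT and 1.19 in HT.

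Of 90 other Wnt pathway genes in 7 lists, 77 had at least 50 counts, and 7 of those were at least 2-fold higher and 2 lower in KO over all cells, beside 5.79% and 2.55% of all genes. Their median log2 ratio was 0.16, against 0.07 for all genes. The lists of 22 cytoplasmic signalling genes, 12 nuclear factors, 11 planar polarity genes and 2 ligand secretion genes together held 1 gene past 2-fold. That gene was Nkd2, a relative of Nkd1, at 0.475, 0.722 and 1.35 CPM and highest in endothelial-like cells.

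Of 14 secreted modulators with enough counts, 5 were higher and 1 lower, beside the same 5.79% and 2.55% of all genes. Gpc3, a glypican that binds Wnts, stood at 2.20, 3.46 and 9.81 CPM and Igfbp4, an IGF-binding protein that also blocks Frizzled, at 4.05, 5.83 and 14 CPM. Both were highest in fibroblast-like cells of WT and HT and in pituicyte-like cells of KO. Apcdd1, an inhibitor at the membrane, was endothelial-like, at 0.429, 0.676 and 1.42 CPM over all cells, Adgra2, a co-receptor for Wnt7 in brain vessels, was fibroblast-like, at 0.373, 0.538 and 0.938 CPM, and Dkkl1 stood at 0.0932, 0.177 and 0.383 CPM.

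Rspo3, a ligand of Lgr receptors that strengthens Wnt signals, was the lower one, at 1.70, 1.06 and 0.128 CPM, with WT 13.3-fold above KO (8.08–23.3). Corticotrope-like cells held 85.2% of its 182 WT counts and 85.7% of its 161 HT counts, at 19.4 CPM (16.5–22.8) and 14.4 CPM (12.1–17), and KO, which has no cells there, had 17 counts in all. Fibroblast-like cells had 34.8, 19.7 and 11.7 CPM in WT, HT and KO, on only 10, 10 and 8 counts. The co-receptor Lrp5 was higher, at 2.04, 2.38 and 4.38 CPM with a KO to WT ratio of 2.14 (1.83–2.52). Its level was led by endothelial-like cells at 40.2, 49.99 and 35.8 CPM. Gonadotrope-like cells held the largest share of its counts, at 36.5%, 42.1% and 44.3%, against 13.7%, 16.8% and 14.4% in endothelial-like cells. All 7 endothelial markers were higher in KO over all cells, summed at 54.9, 76.3 and 140 CPM, and that cluster had 207, 281 and 552 cells. All 7 gonadotrope markers were higher too, and gonadotrope-like cells numbered 449, 630 and 1662. The part of either cell type in the difference was not tested. Among 8 other target genes, Ascl2 was lower, at 0.960, 0.289 and 0.105 CPM.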

How the data were processed

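RNA of single pituitary cells was measured in 3 libraries, 1 for each genotype. The deposited counts are sums for each gene over all cells that share a cluster and a genotype. The table has 55403 gene rows and 61 such sums. The authors' scaled counts, recorded as a signal, hold the same sums multiplied by 1 factor for each genotype and cluster, and were used as an alternative. The deposited count table also gave the number of cells with a count of each gene, another table gave the cluster of each barcode, and 305 further per-sample columns were not used. Software named in the submitters' processing notes was Cell Ranger 5, Seurat 3.1 and DESeq2 without a version, and the builds were mm10 and GRCm38. Collapsing of reads to molecules and use of strand are not given in the sources used here, so members that overlap other genes are less certain. These are Wnt5b, Fzd5, Fzd6, Lgr5 and Sfrp2 on the other strand, Rnf43 and Wnt2b on the same strand, and Lef1 on both. Axin2, Wnt5a, Wnt6, Nkd1 and Fzd3 also overlap genes, which had few counts beside their own.

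Rows of one symbol were added, which moved 110 rows. Counts were divided by the total of the same cells (CPM). Intervals were exact at 95%: Poisson for CPM, Clopper-Pearson for shares of cells and conditional binomial for ratios. A count of 0 was given a limit of 3 counts. Genes were compared with at least 50 counts in the pair of libraries, within clusters of at least 100 cells in both, and a ratio of at least 2 was counted as past the fold. With 1 library a genotype no test was run. Values in full were due for members reaching 20 CPM in a cluster of at least 50 cells, past 2-fold within a cluster, or past 2-fold against WT and 1.5-fold the same way against HT over all cells. Up to 10 other pathway genes were named by the last of these rules, and members under 50 counts by name only. Alternatives were the scaled counts, other totals, clusters left out, the WT cluster mix and other count and fold limits. The WT cluster mix weighted the clusters of at least 20 cells in both libraries by their WT cells. For KO and WT this left out clusters 2, 6, 7, 18 and 20.

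The members, marker lists and pathway lists were chosen with earlier results of these data known. Clusters were named from the marker lists. No doublet step was added to the authors' own, and medians and thinning of counts per cell were not possible from sums. Gene coordinates are those of the deposited table, and promoter stretches are from RefSeq (GRCm38.p6). Scripts used Python 3.11.15, numpy 2.4.6, scipy 1.17.1, pandas 2.3.3 and matplotlib 3.10.9 and were tested on simulated data.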

Additional observations from a re-analysis of the deposited data

Results flagged for a closer look

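Some members stood in opposite order in different cell types, and these differences between cell types were not tested. Nkd1 had a KO to WT ratio of 0.298 in lactotrope-like cluster 0 and 4.08 in gonadotrope-like cluster 3, the latter on 3 WT and 52 KO counts. Wnt4 had a KO to WT ratio of 4.83 in cluster 0 and 0.116 in cluster 3, and a KO to HT ratio of 2.46 and 0.237. In WT, Wnt4 stood at 10.9 CPM in cluster 3 on 55 counts and 0.401 CPM in cluster 0 on 12 counts. Wnt9a had a KO to HT ratio of 2.36 in cluster 3 and 0.497 in lactotrope-like cluster 4, the latter 0.508 on the authors' scaled counts.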

How the results depend on the processing

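No paired analysis was possible because there was only 1 library a genotype. Over all cells, the 5 members higher in KO than WT became 2 on the authors' scaled counts, 1 at the WT cluster mix, 2 at 3-fold and 3 without clusters 15 and 18, a setting chosen after seeing the data. The 4 lower members became 7 on the scaled counts, 1 without clusters 6 and 7, 2 at the WT cluster mix and 7 at 1.5-fold. Of 26 members, 23 had enough counts without clusters 6 and 7, 22 at the WT cluster mix and 25 without clusters 15 and 18. Wnt5b and Lgr5 were not compared in the first 2 of these settings, nor Sfrp2 without clusters 15 and 18. Of all genes, 4.73% were at least 2-fold higher and 8.12% lower on the scaled counts. These shares were 6.48% and 1.67% without clusters 6 and 7, and 2.18% and 1.93% at the WT cluster mix. They were 5.03% and 2.69% without clusters 15 and 18. The 1 member apart between HT and WT became 4 on the scaled counts, 0 without clusters 6 and 7, 0 at the WT cluster mix, 2 at a minimum of 20 counts, 2 with no filter beyond 1 count, 5 at 1.5-fold and 0 at 3-fold. On the scaled counts 4.77% of all genes were at least 2-fold higher in HT than WT and 7.34% lower. The median log2 ratio of the members for KO over WT went from 0.06 to -0.40 on the scaled counts and 0.38 without clusters 6 and 7. The 13 pairs past 2-fold within clusters became 20 at 1.5-fold. Shares of all genes were not worked out at other count or fold limits. Member counts at those limits thus have no share beside them and cannot be read as a result about the members.

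Among members past 2-fold, the KO to WT ratio changed direction for Fzd9, to 0.789 on the scaled counts. For Lgr5 it was 2.1 without clusters 6 and 7 and 1.54 at the WT cluster mix. Both Lgr5 values rest on fewer counts than the limit for a comparison. Members within 2-fold also crossed 1: on the scaled counts Fzd8 (0.860), Fzd1 (0.815), Fzd3 (0.874), Fzd4 (0.789) and Axin2 (0.752), with Fzd10 joining the lower members, without clusters 6 and 7 Rnf43 (1.48) and Wnt6 (3.28), and at the WT cluster mix Rnf43 (1.06), Wnt6 (1.83), Fzd4 (0.710) and Lef1 (0.961). The median log2 ratio of all genes for KO over WT was 0.07, and -0.17 on the scaled counts, 0.16 without clusters 6 and 7 and 0.13 as counts per cell. For HT over WT it was -0.01, and 0.30 as counts per cell, where Sfrp5 was the 1 member past 2-fold in place of Wnt4. Beyond the settings that leave out cells or change the limit, the cause of these shifts was not tested. With 1 library a genotype, no value has a check between animals.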
